A study of Mus musculus with 2 samples.

Results

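Cluster 12 of the authors' deposited clustering, the grouping at resolution 0.5, is a small population of mature migratory dendritic cells (DCs). It was taken whole, as every cell that the deposited cluster table assigns to it: 109 of the 10017 clustered cells, 60 from the chow library and 49 from the ketogenic library. The study profiled single leukocytes from mouse adipose tissue to ask what a diet of almost no carbohydrate does to the immune cells that live there. CD45+ cells that had not been reached by an antibody label given into the bloodstream, and so counted as resident in the tissue, were run on the 10x Genomics platform. Both groups were wild-type (wt) C57BL/6 mice, adult by the library titles: the control group ate chow, and the other group was fed a ketogenic diet (KD), each for 1 week. There was 1 library per diet, and the number of mice behind each is not given in the sources used here, so no difference between the diets below has a replicate check and no test across samples was possible.

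Mature migratory DCs are the end state of conventional DCs (cDCs). An immature cDC of the cDC1 or cDC2 type takes up material in a tissue; on maturation it switches on the chemokine receptor Ccr7, which guides it along lymphatic vessels to the draining lymph node, and there it presents antigen to T cells. The switch brings co-stimulatory molecules, chemokines that draw T cells, NF-kB signalling and several brakes on T cell activation, and much of the machinery for uptake is turned down. In adipose tissue such cells are one route by which resident T cells, regulatory T cells among them, are informed of what the tissue holds.

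The 109 cells were well sampled. Each is described by counts of unique molecular identifiers (UMIs, 1 per captured RNA molecule): the chow cells held 389485 UMIs in all with a median of 6306 per cell (1849 to 17401), and the ketogenic cells 345951 with a median of 6808 (2643 to 13652). Levels are given as CPM, the UMIs of a gene per 1000000 UMIs of the cells summed, and a ratio always sets the ketogenic library over the chow library. Intervals in square brackets are exact 95% intervals (Poisson for a CPM, Clopper-Pearson for a share, conditional for a ratio), and they cover counting error only, not the difference between mice. The libraries had 41 cell barcodes in common, none of them in a cell of cluster 12.

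The label held against its 5 markers, Ccr7, Ccl22, Fscn1, Il4i1 and Apol7c. At least 3 of the 5 were detected in 58 of 60 cells from chow and 47 of 49 from KD, and the sum of their UMIs ran from 3 through a median of 32 to 188 per chow cell and from 5 through a median of 50 to 223 per ketogenic cell. After every cell was thinned to 1000 UMIs, 97.5% (chow) and 97.7% (KD) still carried a marker UMI, against 1.80% and 1.43% in cluster 1, which carried all 7 natural killer (NK) cell markers and is called NK-like here. All 5 markers were among the 10 leading genes of the cluster. The markers helped to place these cells in their cluster, so these values describe it and test nothing.

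Ccr7 led the cluster, with a level (20 CPM added) 64.7-fold above that of the other clustered cells. The gene lies on chromosome 11, 99144196 to 99155077, minus strand (GENCODE M21 on GRCm38, the assembly also called mm10). It was found in 59 of 60 chow cells and all 49 ketogenic cells, at 2829 CPM [2665–3001] and 3489 CPM [3295–3691], and per 10000 UMIs of a cell it ran from 0 through a median of 28.1 to 77.7 on chow and from 2.72 through 29.5 to 85.6 on KD. The cells of the 2 libraries covered the same range. The next highest cluster, 9, held Ccr7 at 144 CPM.

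Next in order came Ccl22 (57.6-fold), a chemokine that attracts Ccr4-bearing T cells, and Fscn1 (57.4-fold), which encodes fascin, the actin-bundling protein of DC dendrites. Fabp5, a fatty acid chaperone, followed at 39.0-fold, the tetraspanin Cd63 at 34.7-fold, and Il4i1, a secreted amino acid oxidase that restrains T cells, at 26.6-fold. Ccl17, the partner of Ccl22 at the same receptor, stood at 25.4-fold, and Apol7c, an apolipoprotein L family gene, at 21.6-fold. The other 12 of the 20 leading genes were Tspan3, Clu, Tmem123, Nudt17, Anxa3, Tbc1d4, Rogdi, Cxcl16, Zmynd15, Cacnb3, Basp1 and Eno3, between 20.6-fold and 11.7-fold. Zmynd15 overlaps Cxcl16 on the opposite strand, and the sources used here do not say whether counting used strand, so its 14.0-fold is uncertain. Of the 20, Fscn1, Clu, Nudt17, Zmynd15, Cacnb3 and Apol7c stayed under 3 CPM in every other cluster, whereas Tmem123 and Fabp5 reached 164 and 182 CPM in their next highest cluster.

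**Figure D1:**
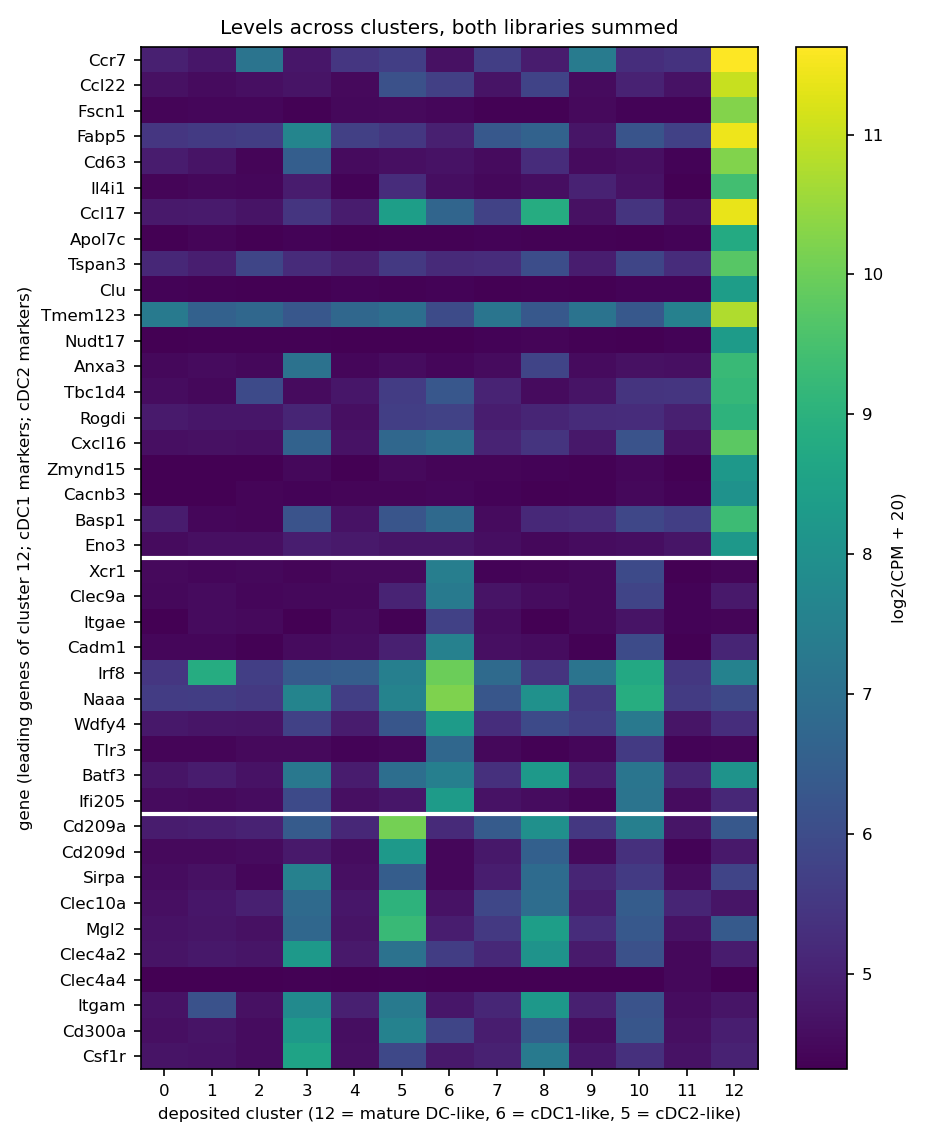
Colour gives log2(CPM + 20), both libraries summed, for the 20 leading genes of cluster 12 (top), the 10 cDC1 markers (middle) and the 10 cDC2 markers (bottom) in the 13 deposited clusters. Each leading gene is brightest in column 12; Ccl17 is also visible in clusters 5 and 8, Fabp5 and Anxa3 in cluster 3, Ccr7 in clusters 2 and 9 and Tmem123 in most clusters, and the markers of cDC1 and cDC2 other than Irf8 and Batf3 are dark there.

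The nearest populations were the other DCs. Over 6689 genes, log2(CPM + 20) of cluster 12 correlated best with cluster 5 (Pearson r = 0.892 in the chow library and 0.863 in the ketogenic library) and then with cluster 6 (0.874 and 0.852), and least with clusters 1 or 11. These correlations are across genes within a library, share that library's depth and carry no test. Cluster 6 is cDC1-like (9 of 10 cDC1 markers raised at least 2-fold, 5 of them among its 10 leading genes). Cluster 5 is cDC2-like (5 of 10 raised, 4 among its 10 leading genes) but also carried 6 of 8 plasmacytoid DC markers.

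Levels in cluster 12 were set against those of clusters 5 and 6, as ratios of CPM + 20 with both libraries summed; the clusters were made from these genes, so the counts describe and do not test. In all, 163 of the 4774 genes measured (3.41%) were at least 2-fold above both cluster 5 and cluster 6, and 189 (3.96%) at least 2-fold below both. Among the lists chosen for this cell type, the migration and cytoskeleton list had 9 of its 15 measured members above both and none below: Ccr7, Fscn1, Marcks, Samsn1, Cacnb3, Anxa3, Tmem123, Cd63 and Tbc1d4. Fscn1 stood at 1222 CPM against 1.86 CPM in cluster 6 and 2.82 CPM in cluster 5. Marcks, which links the membrane to actin, stood at 1172 CPM against 276 and 301. Vim, the intermediate filament vimentin, was at nearly one level in all of them (1853, 1778 and 1755 CPM).

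The NF-kB list had 6 of 19 members above both and none below. They were Relb (517 CPM against 24.8 in cluster 6 and 54.7 in cluster 5) and Nfkb2 (159 against 25.3 and 41.5), which form the non-canonical dimer, with its upstream kinase Map3k14, then Rel, the ubiquitin ligase Birc2 (275 against 13.3 and 31.4) and the caspase-8 regulator Cflar. Nfkb1 and Rela, the canonical pair, were not past 2-fold against both. Survival genes followed the same direction, with the Bcl2 relatives Bcl2a1b and Bcl2a1d and again Cflar above both, 3 of 12, and none below.

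Antigen presentation split by class. Of 17 measured members of the MHC class I list, 6 were above both: B2m (6354 CPM against 1756 in cluster 6 and 2725 in cluster 5), the heavy chains H2-K1, H2-Q4, H2-Q6 and H2-Q7, and the proteasome activator subunit Psme2; the oxidoreductase Pdia3 was below. H2-Q family members are near copies of each other, so reads may have been split among them. Of 13 class II members none was above both and 5 were below: the chain H2-Ab1 (6277 CPM against 14515 and 17408), the peptide editor chains H2-DMa and H2-DMb1, H2-Ob, a chain of the H2-O protein that inhibits that editor, and March1, the ligase that removes class II from the surface, which had 1 UMI in all. The invariant chain Cd74 stood at 26216 CPM against 35659 and 48146, and the class II regulator Ciita at 10.9 against 31.7 and 42.3 CPM.

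Signals to T cells differed gene by gene. The share over all 4774 genes measured was 3.41% above both clusters and 3.96% below both. Cd40, the receptor for T cell help, was the one co-stimulation gene of 8 above both (177 CPM against 7.43 in cluster 6 and 41.1 in cluster 5), while Cd83, a maturation marker (1112, 784 and 927 CPM), and Cd86 (58.5, 101 and 55.7 CPM) were not. From the list of brakes and regulators, 4 of 9 were above: Il4i1, the inhibitory ligand Cd200 (185 against 16.9 and 17.1 CPM), the retinoic acid enzyme Aldh1a2 (181 against 5.74 and 10.7) and the cytokine-signal inhibitor Socs2 (398 against 10.8 and 16.5), with Tgfb1 below. PD-L1, encoded by Cd274, stood at 59.8 CPM against 3.88 and 3.02, under the UMI minimum of that count.

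Of 10 measured chemokines 4 were above both, Ccl17, Ccl22, Ccl5 and Cxcl16, and Ccl6 was below. Cytokine and receptor genes gave fewer such differences. Over all 4774 genes measured, 3.41% were above both and 3.96% below both. Il12b, the shared p40 subunit of IL-12 and IL-23, was the one cytokine of 7 above both, at 147 CPM against 0.675 and 0.805. Its partner Il12a had 0 UMIs in the 109 cells, and Il23a had 1. Il21r, the IL-21 receptor, stood above (154 CPM against 8.11 and 28.0) and the interferon-gamma receptor chain Ifngr1 below (102 against 414 and 247). Id2, a transcription factor needed for cDC development (1685 CPM against 479 and 100), and the repressor Etv3 were the 2 above both among 21 DC transcription factors, and Klf4 was below.

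Immediate early genes, which switch on within minutes of a stimulus or of tissue handling, ran the other way: 7 of 20 were below both clusters (Fos, Fosb, Egr1, Ier2, Nr4a1, Btg2 and the heat-shock gene Hspa1a), and Nr4a3, an orphan nuclear receptor, was the one above (420 CPM against 78.5 and 149). Fos stood at 258 CPM against 885 and 1302. Uptake genes were below in 2 of 14, the Fc receptor Fcgr2b and the lipopolysaccharide co-receptor Cd14, and none was above. In metabolism, 1 of 16 fatty acid oxidation genes was above, Fabp5 (2732 CPM against 11.0 and 25.2). So were 3 of 15 cholesterol genes, the sterol exporter Abcg1, the lysosomal sterol carrier Npc2 and the isoprenoid enzyme Idi1. Of 14 glycolysis genes 1 was below, lactate dehydrogenase Ldha. Of 11 adhesion and integrin genes 2 were below, Itgb2 and Itgb7, and none was above. Over all 4774 genes measured 3.41% were above both and 3.96% below, so 1 of 16 and 1 of 14 are near the background.

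Cells of cluster 12 made up a smaller share of the clustered cells in the ketogenic library than in the chow library. The size of the difference, and under some alternatives its direction, depended on the denominator or on the definition of these cells. They were 1.35% [1.03–1.73] of clustered cells on chow and 0.881% [0.653–1.16] on KD, a ratio of 0.655 [0.440–0.971]. Cluster 3 had 6 of 10 macrophage, 6 of 7 monocyte and 5 of 10 cDC2 markers raised at least 2-fold, and cluster 8 had 1 of 10 macrophage, 2 of 7 monocyte and 5 of 10 cDC2 markers. Together they were 27.4% of the chow and 3.45% of the ketogenic clustered cells, and a change in their share alters every other share of the total. Among cells outside those clusters mature DCs were 1.85% and 0.913%, a ratio of 0.493 [0.331–0.731]. Among the DC clusters 5, 6 and 12 they were 8.44% and 6.43%, a ratio of 0.762 [0.512–1.13], whose interval holds 1. With cluster 8 counted among them, a choice made after the data were seen, the shares were 5.59% and 6.06% and the ratio turned to 1.08 [0.727–1.61]. A definition by markers, at least 3 UMIs of the 5 after thinning to 1000 UMIs, gave an expected 55 and 56 cells and a ratio of 0.817 [0.553–1.21]. Without thinning, the same 3 UMIs were met by 126 and 228 cells and the ratio turned to 1.45 [1.16–1.82]; of those ketogenic cells 51 lay in cluster 2 and 53 in cluster 9. In cluster 9 these were 21.6% of the ketogenic cells and 3.66% of the chow cells, at median depths of 4192 and 5806 UMIs.

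**Figure D2:**
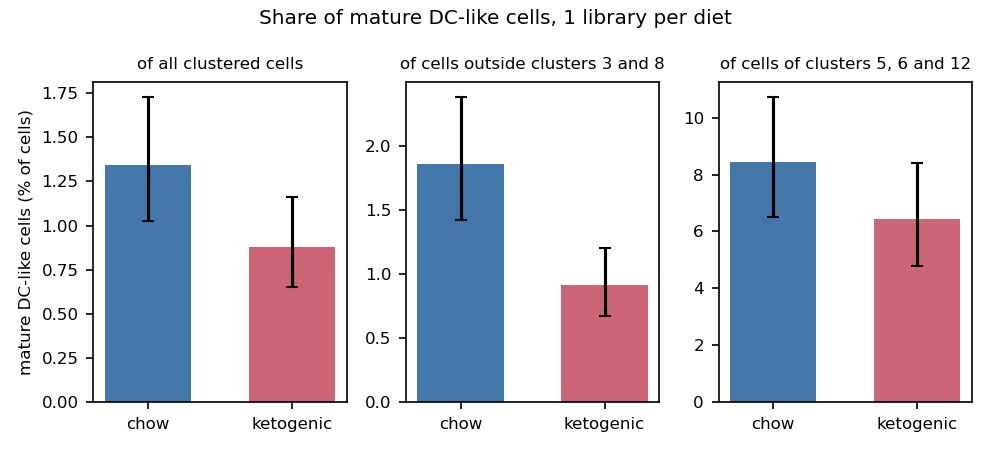
Bars give mature DC-like cells as a percentage of 3 denominators in each library, with exact 95% binomial intervals that cover counting error only. The ketogenic bar is lower in each panel, 0.881% against 1.35% of all clustered cells and 6.43% against 8.44% of the DC clusters, and the intervals overlap for all clustered cells and for the DC clusters, but not for cells outside clusters 3 and 8.

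Within the cluster most genes were close between the diets. Of 1466 genes with at least 50 UMIs, the median log2 ratio was 0.01 and 90% lay between -0.77 and 0.87. At least 2-fold higher in the ketogenic library were 54 genes (3.68%), and at least 2-fold lower 35 (2.39%). In a check chosen after the data were seen, the 17 cells (7 chow, 10 ketogenic) that held 10 or more UMIs of T, NK, ILC2, B and plasma cell, cDC1, cDC2, monocyte or macrophage markers were left out, and 25 genes were higher and 27 lower among the 1199 then measured. These are cells of the cluster, and 16 of the 17 held 20 to 223 UMIs of its 5 markers; 4 of the ketogenic cells were left out for cDC1 markers alone, and with those kept 35 genes were higher and 31 lower among 1257. Among them a chow cell held 67 cDC2 marker UMIs, another chow cell held 34 monocyte and 31 cDC1 marker UMIs, 2 ketogenic cells held 48 and 26 NK marker UMIs, and another ketogenic cell held 29 UMIs of cycling and 25 of T cell markers. Doublets were not called by a tool, and their part in the results was not tested beyond leaving these cells out.

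Ccl17 was the most abundant of the 10 named lower genes (chromosome 8, 94810453 to 94812036, plus strand). The chow cells held 1648 UMIs (4231 CPM [4029–4441]) and the ketogenic cells 284 (821 CPM [728–922]), a log2 ratio of -2.36, or 5.15-fold lower [4.54–5.87]. Per 10000 UMIs of a cell it ran from 0 through a median of 4.36 to 560 on chow and from 0 through 1.12 to 79.2 on KD; the ranges overlapped, with the highest cells all from the chow library. A single chow cell held 391 of the UMIs, and without the highest cell of each library the log2 ratio was -2.35. Ccl17 was also lower under KD in all 12 other clusters, with log2 ratios of -2.39 in the cDC2-like and -0.29 in the cDC1-like cluster.

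Ccl22, its neighbour on chromosome 8 (94745590 to 94751699, plus strand), had a log2 ratio closer to 0. It stood at 2241 CPM [2095–2395] on chow and 1804 CPM [1665–1951] on KD, a log2 ratio of -0.31, and ran from 0 through a median of 5.04 to 189 per 10000 UMIs on chow and from 0 through 3.27 to 149 on KD. The cells of both libraries overlapped over nearly the whole range. A single ketogenic cell held 162 of the 624 Ccl22 UMIs, and the log2 ratio of Ccl22 ran from -1.01 to -0.26 over 9 alternatives, the former without cells holding 3 UMIs of T cell, macrophage, NK or B cell markers, where that of Ccl17 was -2.23. The bases just upstream of each RefSeq start (GRCm38.p6) are shown, in lower case throughout because neither holds a match to the NF-kB consensus on either strand; that of Ccl22 is cut to the 156 bases that lie outside any annotated exon.
Ccl17 promoter, chr8:94810203-94810452 (+ strand): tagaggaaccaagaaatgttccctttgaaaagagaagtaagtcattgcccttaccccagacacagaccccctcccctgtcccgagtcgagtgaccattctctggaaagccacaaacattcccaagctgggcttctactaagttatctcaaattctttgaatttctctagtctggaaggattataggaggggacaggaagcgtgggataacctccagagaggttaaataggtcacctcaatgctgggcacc
Ccl22 promoter, chr8:94745434-94745589 (+ strand): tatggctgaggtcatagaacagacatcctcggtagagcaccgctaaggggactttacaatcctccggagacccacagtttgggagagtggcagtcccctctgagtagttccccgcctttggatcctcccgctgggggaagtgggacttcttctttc
The consensus was searched by its 10-base degenerate form in the 250 bases before each start, where 1281 of 32851 promoters (3.90%) hold it, and no match says only that these letters are absent from this window.

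High Ccl17 was a property of a subset. On chow 18 of 60 cells held 10 or more Ccl17 UMIs and together 95.6% of all Ccl17 UMIs, and 16 of those 18 also held 10 or more of Ccl22. On KD 6 of 49 cells passed for Ccl17, with 77.8% of its UMIs, and 5 of the 6 also passed for Ccl22. Cells high in Ccl22 numbered 20 on chow and 13 on KD. Of the Ccl22-high cells, then, 16 of 20 on chow and 5 of 13 on KD were also high in Ccl17; no test across mice was possible. The Ccl17-high cells had a median depth of 7158 UMIs on chow and 7866 on KD, somewhat above the cluster's own.

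Other chemokines varied in both directions. Among the 9 with at least 20 UMIs, 2 were at least 2-fold higher and 3 lower in the ketogenic library (5.55% and 4.34% of all 3206 genes at that minimum), with a median log2 ratio of -0.31. The median was -0.79, with 1 higher and 4 lower, without cells holding 3 UMIs of other lineage markers, and it turned to 0.17, with 2 higher and 1 lower, after the subtraction of 10% free RNA. Ccl5, which attracts T cells and NK cells, was found in 55 of 60 and 49 of 49 cells at 5738 CPM [5503–5981] and 10889 CPM [10544–11242], a log2 ratio of 0.92 that stopped short of 2-fold. Ccl6 (229 to 54.9 CPM) and the neutrophil chemokine Cxcl2 (185 to 23.1 CPM) were lower too. With 10% free RNA subtracted the log2 ratio of Ccl6 turned to 0.17, while that of Ccl17 was -2.36. Ccl4 and Cxcl10 were higher, but 1 cell held 57.0% of the Ccl4 UMIs and 1 held 54.7% of the Cxcl10 UMIs. Cxcl16, the ligand of Cxcr6, stood at 760 and 986 CPM and was found in 58 and 47 cells.

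Fscn1 (chromosome 5, 142960343 to 142973185, plus strand) was the most abundant of the 10 named higher genes. It stood at 688 CPM [608–776] on chow and 1824 CPM [1684–1972] on KD, a log2 ratio of 1.40 or 2.65-fold [2.29–3.07]. Per 10000 UMIs it ran from 0 through a median of 6.91 to 24.4 on chow and from 0 through 15.3 to 66.2 on KD, and the upper part of the ketogenic range lay above every chow cell. A UMI was found in 48 of 60 and 47 of 49 cells, and 46.6% and 71.8% of cells after thinning to 1000 UMIs. The log2 ratio lay between 1.28 and 1.47 under all 9 alternatives. It was low and mixed in direction elsewhere, at 2.82 CPM or less in clusters 5 and 6.

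None of the other 14 migration genes measured passed 2-fold, and the list's median log2 ratio was 0.28. Ccr7 itself differed by 0.30, Cacnb3, a calcium channel subunit, by 0.79, and Tbc1d4, a Rab GTPase activator, by 0.65. Among the other markers Il4i1 stood at 606 and 728 CPM (log2 ratio 0.27) and Apol7c at 295 and 569 CPM (0.94), found in 27 of 60 and 33 of 49 cells.

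**Figure D3:**
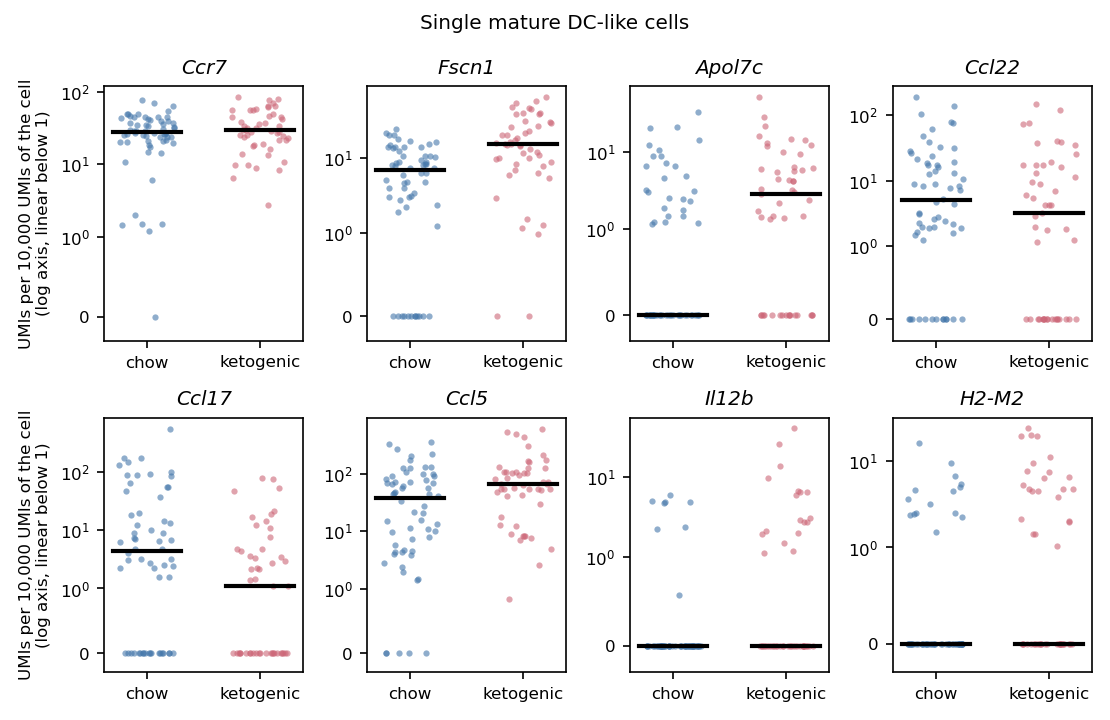
Each point is one mature DC-like cell, with UMIs of a gene per 10000 UMIs of that cell on an axis that is logarithmic above 1 and linear below, and the black bar is the median of the library (60 chow and 49 ketogenic cells). Ccr7 covers the same range in both, Fscn1 is shifted upward under KD (medians 6.91 and 15.3), and the highest Ccl17 cells are chow cells.

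Il12b (chromosome 11, 44400063 to 44414033, plus strand) had the highest ratio of the named genes. Only 8 of 60 chow cells and 18 of 49 ketogenic cells held a UMI, 21 and 87 UMIs in all, for 53.9 CPM [33.4–82.4] and 251 CPM [201–310] and a log2 ratio of 2.20. After thinning to 1000 UMIs the shares of cells with a UMI were 4.37% and 15.2%. Without the 17 cells described above the log2 ratio was 0.67, but 54 of the 87 ketogenic Il12b UMIs lay in the 4 cells left out for cDC1 markers alone, 34 of whose 54 cDC1 marker UMIs were Irf8; with those 4 cells kept it was 2.10. Without the highest cell of each library it was 2.06. Within the ketogenic library 12 of the 18 cells with Il12b also held Irf8, and 11 of 18 held Apol7c, against 28 and 33 of all 49 cells. In the chow library 3 and 6 of the 8 cells with Il12b did, against 18 and 27 of all 60 cells.

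Irf8, the transcription factor that sets the cDC1 lineage, stood at 105 CPM [75.5–143] and 237 CPM [189–294] (log2 ratio 1.16), with UMIs in 18 of 60 and 28 of 49 cells. It was also higher under KD in the cDC1-like (0.69) and cDC2-like (1.11) clusters and in 11 of the 12 other clusters. Its own UMIs count among the cDC1 markers by which cells were left out, so the log2 ratio of 0.65 without the 17 cells is set in part by Irf8 itself. It was 1.34 with the cDC1 markers not counted. Batf3, which works with it, stood at 277 and 214 CPM (-0.37).

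H2-M2 (chromosome 17, 37480851 to 37483552, minus strand), a non-classical MHC class I gene, was found in 15 of 60 chow and 23 of 49 ketogenic cells. Its level was 100 CPM [71.2–137] and 330 CPM [272–396], a log2 ratio of 1.71, and it kept at least 1.55 in all 9 alternatives. The gene was nearly silent outside cluster 12, with 2 UMIs in the whole cDC1-like and 3 in the whole cDC2-like cluster. Most cells with H2-M2 also held Apol7c, 11 of 15 on chow and 19 of 23 on KD, against 27 of all 60 and 33 of all 49 cells. Its promoter is shown because it was one of 3 among 27 named genes with a RefSeq promoter entry to hold the NF-kB consensus, beside Basp1 and Hmgb2; capitals mark the matches, which begin 180 and 146 bases before the start.
H2-M2 promoter, chr17:37483555-37483804 (- strand): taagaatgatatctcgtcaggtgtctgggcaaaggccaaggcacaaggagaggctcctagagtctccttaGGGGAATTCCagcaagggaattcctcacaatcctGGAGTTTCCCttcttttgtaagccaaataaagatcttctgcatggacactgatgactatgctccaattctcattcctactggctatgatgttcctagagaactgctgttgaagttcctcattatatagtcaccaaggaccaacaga
A match is a description of the letters, and no binding was measured here.

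The remaining named higher genes were Rcsd1, an actin-capping protein regulator (1.61), Rtn4, a protein that shapes the endoplasmic reticulum (1.50), Eno3, an enolase (1.35), the LIM-domain gene Limd2 (1.31), the chromatin protein Hmgb2 (1.22) and the ubiquitin-conjugating enzyme Ube2s (1.14), all as log2 ratios. Eno3 rested on 63 and 143 UMIs in 36 of 60 and 40 of 49 cells, for 162 CPM [124–207] and 413 CPM [348–487]. Limd2 was higher in all 12 other clusters and Rcsd1 in 11 of 12, while Rtn4 differed by 0.19 or less in clusters 5 and 6. Hmgb2 and Ube2s did not hold at 2-fold: a single ketogenic cell held 22 of 75 Hmgb2 UMIs, and without the 17 cells above the log2 ratios were 0.72 and 0.61.

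**Figure D4:**
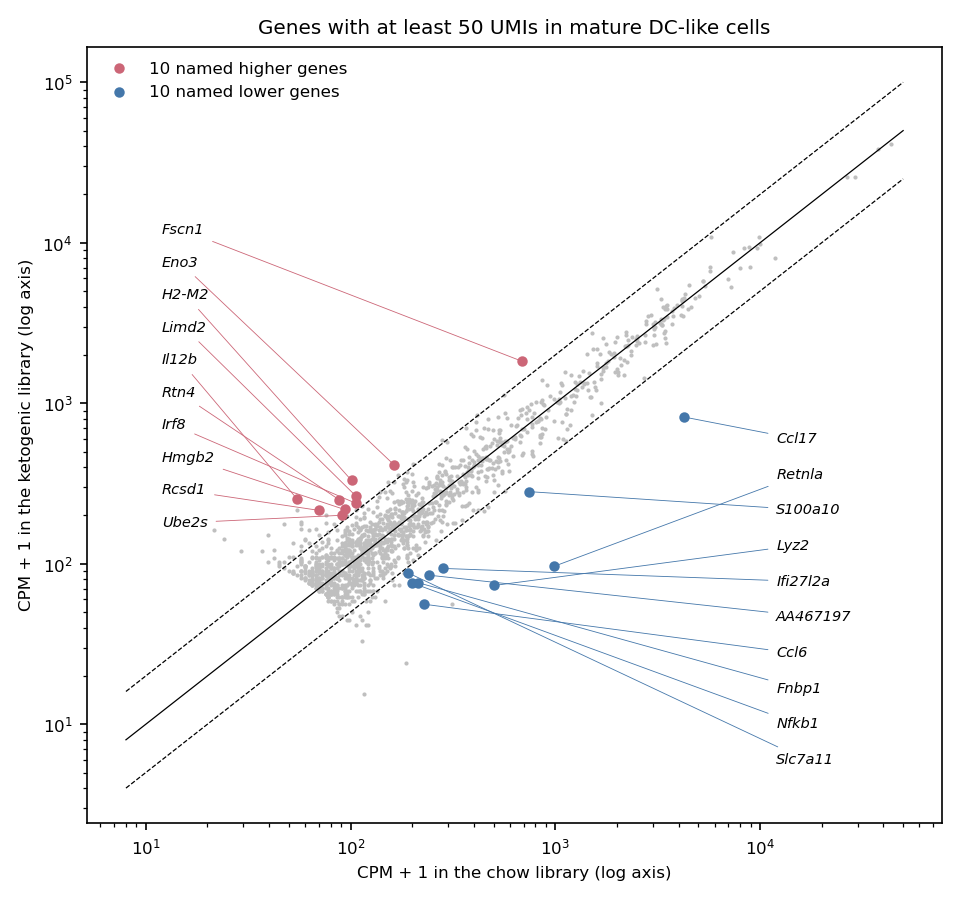
Each point is one of 1466 genes with at least 50 UMIs in the 109 cells, with CPM + 1 in the chow library against the ketogenic library on log axes, the line of equal levels (solid) and the 2-fold lines (dashed). Most genes lie between the dashed lines, Fscn1 stands out above them at high level, and Retnla and Ccl17 stand well below them.

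Retnla and Lyz2 had the lowest ratios of the named genes, which had at least 100 UMIs, and both were also lower under KD in the NK-like cluster. Retnla, a macrophage-secreted resistin-like protein, stood at 986 CPM [890–1090] and 95.4 CPM [65.7–134] (log2 ratio -3.35), and Lyz2, lysozyme of myeloid cells, at 503 CPM [435–579] and 72.3 CPM [46.8–107] (-2.77). On chow each was found in 54 of 60 cells, at medians of 4.81 and 4.72 per 10000 UMIs. In the NK-like cluster 1 Retnla stood at 562 and 54.0 CPM (-3.38) and Lyz2 at 843 and 116 CPM (-2.86), and Ccl6 was lower in both clusters (-2.03 in cluster 12 and -3.38 in cluster 1). With 10% of the UMIs taken away in proportion to the whole library, an assumed amount and not a measured background, Lyz2 and Ccl6 turned to 0.17 each, while Retnla stayed at least 2-fold lower under all 9 alternatives. The part of free RNA in these differences was not tested.

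Nfkb1, the p105 and p50 subunit of NF-kB, was lower in this cluster and not in its neighbours. It stood at 198 CPM [156–247] and 75.2 CPM [49.1–110], a log2 ratio of -1.38, and was found in 36 of 60 and 14 of 49 cells. In the cDC1-like and cDC2-like clusters the log2 ratios were 0.30 and 0.13, and 10 of the 12 other clusters were above 0; the difference between clusters was not tested. Of the 19 measured NF-kB genes, 13 were above 0 (1686 of all 3206 genes with at least 20 UMIs were), with a median of 0.31. Bcl3 was the one at least 2-fold higher, on 12 and 25 UMIs. Relb (0.48), Nfkbia, an NF-kB inhibitor (0.44), and Rel (-0.11) were not past 2-fold. Over all 3206 genes 5.55% were at least 2-fold higher and 4.34% lower, so 1 of 19 each way is near the background.

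The other named lower genes were the interferon-induced Ifi27l2a (-1.59), AA467197, known as Nmes1 (-1.51), Fnbp1, a membrane-curving protein (-1.48), S100a10, the annexin A2 partner (-1.40), and Slc7a11, the cystine importer (-1.12), as log2 ratios. S100a10 had the most UMIs, 290 on chow in 54 of 60 cells and 97 on KD in 26 of 49 cells, for 745 CPM [661–835] and 280 CPM [227–342]; it was also lower in all 12 other clusters, by less (-0.32 and -0.55 in clusters 6 and 5). Its log2 ratio ran from -2.10 to -1.36 over 9 alternatives, and was -1.99 without the 17 cells and -1.88 with free RNA subtracted. Slc7a11 was expressed in the cluster at 190 and 86.7 CPM and at 1.61 CPM or less in clusters 5 and 6. It stood at -0.89 without the 17 cells above, and Ifi27l2a at -0.93 without the deepest 10% of cells.

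Traces of the cDC2 program differed between the libraries. The 10 cDC2 markers summed to 143 UMIs (367 CPM) on chow and 16 UMIs (46.2 CPM) on KD, and 1 chow cell held 67 of the 143, which leaves 202 CPM [159–253] without it. Mgl2, a lectin of cDC2s and macrophages, had 47 UMIs in 9 chow cells, 28 of them in that cell, and 0 on KD, which allows up to 8.67 CPM at 3 UMIs over the ketogenic cells and makes it at least 13.9-fold lower with that cell included and at least 5.83-fold lower without it. Cd209a, another cDC2 lectin, had 42 and 3 UMIs. After thinning to 1000 UMIs, 17.1% and 4.32% of cells held a cDC2 marker UMI, against 14.8% and 6.50% of NK-like cells, whose median depths were 2296.5 and 3147 UMIs. NK cells express 1 of the 10 markers themselves, Itgam, at 76.8 and 39.5 CPM here against 12.8 CPM and 0 in cluster 12. Without Itgam, a choice made after the data were seen, the shares were 16.8% and 4.32% in cluster 12 and 8.20% and 2.59% in NK-like cells, which on chow is above the NK-like cells. The ketogenic share rests on few cells, with an interval of [0.498–14.0] that holds both NK-like values. The chow share of 17.1%, with Itgam counted, has an interval of [8.29–28.5], which holds the NK-like 14.8%. No interval is given for the 16.8% without Itgam. Cells of cluster 12 with cDC2 transcripts and free RNA were not told apart.

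For cDC1 markers the shares were 34.5% and 39.6% in cluster 12, and 34.0% and 34.0% in NK-like cells, where Irf8 stood at 416 and 456 CPM and made up most of the sum. Without Irf8 they were 29.1% and 25.3% in cluster 12 and 6.21% and 3.88% in NK-like cells, and Batf3 was the most abundant of the other 9 in cluster 12. Of the 10 cDC1 markers, 3 had at least 20 UMIs: Irf8, Batf3 and Naaa. Irf8 was at least 2-fold higher on KD and Naaa at least 2-fold lower, with a log2 ratio of -1.41. Naaa was also below both cluster 5 and cluster 6. Among the rest, Xcr1, Tlr3 and Itgae had 1 UMI each on chow and 0 on KD, and Clec9a had 1 and 5. Adipocyte, stromal and endothelial markers summed to 5 UMIs in all 109 cells, with 8 of 10 at 0. Of 10 macrophage markers 4 were at 0 (Folr2, Lyve1, Mertk and Fcgr1) and the sum was 38.5 and 5.78 CPM. T cell (123 and 225 CPM), NK (123 and 338 CPM) and cycling markers (23.1 and 107 CPM) were higher on KD, and without the 17 cells they stood at 126 and 120, 126 and 136, and 22.1 and 31.0 CPM. ILC2 markers stood at 74.5 and 182 CPM, and at 69.5 and 50.4 CPM without those cells. T, NK, ILC2 and monocyte markers were among those by which the 17 cells were left out. Sums of these markers without the 17 cells are therefore set in part by that choice. With 10% free RNA subtracted, T cell markers stood at 62.9 and 50.2 CPM and NK markers at 26.7 and 166 CPM. ILC2 markers then stood at 4.95 and 101 CPM, and cycling markers at 12.5 and 101 CPM. The 7 monocyte markers, Lyz2 among them, summed to 750 CPM on chow and 237 CPM on KD, and to 594 and 171 CPM without the 17 cells. With 10% free RNA subtracted 44.2 and 23.2 CPM were left. Of the 5 with at least 20 UMIs, Lyz2, Plac8 and Fn1 were at least 2-fold lower on KD. Ly6c2 went the other way, with a log2 ratio of 1.50. Plasmacytoid DC markers stood at 257 and 145 CPM, B and plasma cell markers at 128 and 113 CPM, and neutrophil and mast cell markers at 28.2 and 2.89 CPM. The part of other cells in the differences between the diets was not tested beyond these values.

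MHC class I genes leaned one way under KD while class II genes did not. Of 18 measured class I members, 17 were above 0 (1686 of all 3206 genes with at least 20 UMIs were), with a median log2 ratio of 0.33, but Nlrc5, the class I transactivator, alone passed 2-fold, on 10 and 19 UMIs. B2m stood at 5687 and 7105 CPM (0.32), H2-D1 at 3268 and 4489 CPM (0.46), and the immunoproteasome subunit Psmb9 at 270 and 419 CPM (0.64). Without the 17 cells left out above 15 of 17 were above 0 and the median was 0.22. The 11 class II members had a median of -0.06 and none past 2-fold: Cd74 stood at 26699 and 25671 CPM and H2-Ab1 at 7174 and 5267 CPM (-0.45). The other signals to T cells were close too, Cd40 at 175 and 179 CPM, Cd83 at 1055 and 1176 CPM and Cd200 at 193 and 176 CPM. Icosl and Tnfsf9, 2 of 9 co-stimulation genes, and Socs3, 1 of 9 regulators, passed 2-fold upward, each on 100 UMIs or fewer. Of all 3206 genes with at least 20 UMIs, 5.55% did. Without cells holding 3 UMIs of other lineage markers 0 of 8 co-stimulation genes passed, and without the 17 cells 1 of 9 did.

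Receptors and transcription factors showed little common movement, with medians of -0.02 over 19 genes and -0.16 over 19. Tnfrsf4, the OX40 receptor, was the one receptor at least 2-fold higher (15 and 52 UMIs, in 8 of 60 and 18 of 49 cells), and Csf2rb2 was the one lower (34 and 13 UMIs). Over all 3206 genes with at least 20 UMIs 5.55% were at least 2-fold higher and 4.34% lower, so 1 of 19 each way is near the background. Bcl6 (18 and 5 UMIs) was lower and Irf8 higher among the transcription factors. Without the 17 cells 4 of 18 were lower and 0 higher. No share over all genes with at least 20 UMIs is given without those cells. At the higher minimum used outside the lists, 27 of 1199 genes were then at least 2-fold lower and 25 higher. Il1b, the inflammasome substrate, stood at 775 and 471 CPM (-0.72), Nlrp3 had 4 and 2 UMIs, and the 5 inflammasome genes measured had a median of -0.03 with none past 2-fold. Interferon-response genes had a median of -0.13 over 9, with Ifitm3 (447 and 211 CPM) and Ifi35 lower; without the 17 cells 0 of 8 passed and the median was 0.24.

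Fuel genes were measured thinly. Of 11 genes for ketone body use and transport 1 reached 20 UMIs, the ketolytic enzyme Oxct1, with 19 and 11 UMIs. Fatty acid oxidation genes lay below 0 in 9 of 10, with a median of -0.50, and 1 passed 2-fold, Fabp4 (27 and 9 UMIs). Without the 17 cells 6 of 9 lay below 0. Of all 3206 genes with at least 20 UMIs, 1520 lay below 0 and 1686 above, and 4.34% were at least 2-fold lower. Fabp5 stood at 3086 and 2333 CPM (-0.40). Glycolysis genes lay above 0 in 9 of 12, with a median of 0.30 and none past 2-fold. Gapdh stood at 429 and 616 CPM (0.52). The glycolysis sum was also higher under KD in the cDC1-like (1961 and 2687 CPM) and cDC2-like (2129 and 2714 CPM) clusters. It was higher too in cluster 3 (2917 and 3599 CPM) and in NK-like cells (2240 and 3145 CPM). Of 11 cholesterol genes 4 were at least 2-fold lower, against a background of 4.34%. Among them were the lipid carrier Apoe, the synthesis enzyme Hmgcs1 and the sensor partner Insig1, each on 47 UMIs or fewer. The median over the list was -0.31. With 10% free RNA subtracted it was -0.09, with 3 lower and 1 higher. Without the 17 cells 3 of 11 were lower, and Apoe is also a macrophage transcript.

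**Figure D5:**
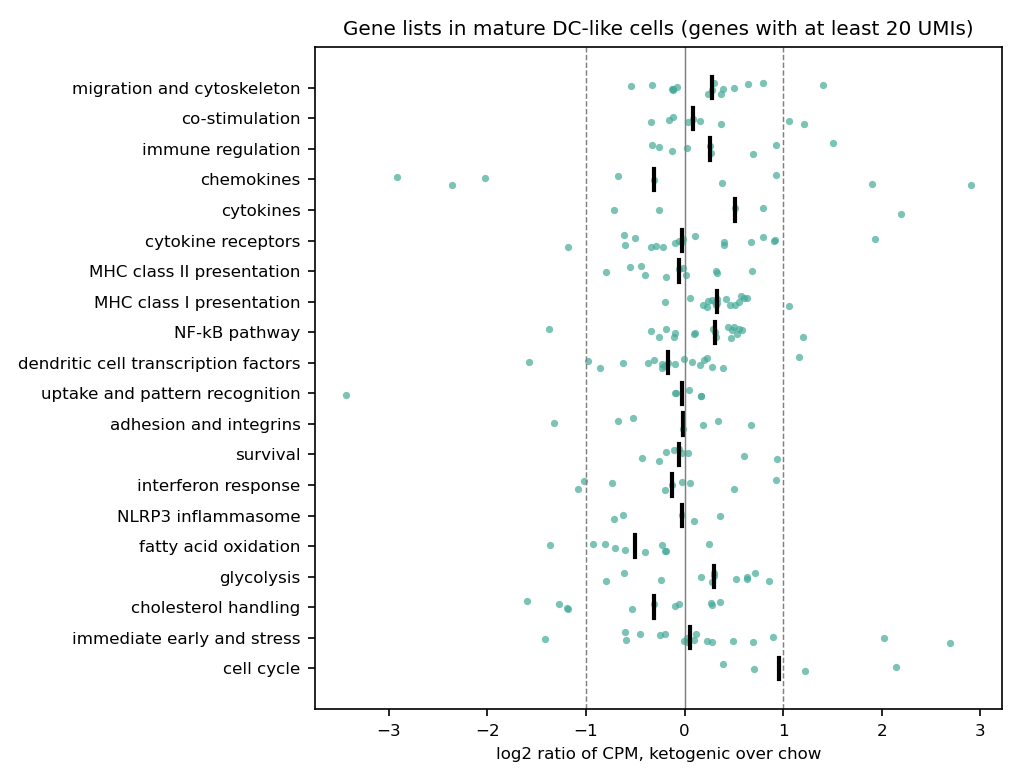
Each point is a gene with at least 20 UMIs in the 109 cells, placed by its log2 ratio of CPM, ketogenic over chow, within its list; the black bar is the list median and dashed lines mark 2-fold. MHC class I genes lie to the right of 0 in 17 of 18 cases, fatty acid oxidation genes to the left in 9 of 10, and chemokines spread from -2.92 to 2.90. Of all 3206 genes with at least 20 UMIs, 1686 lie above 0 and 1520 below.

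Of 18 immediate early and stress genes, 2 were at least 2-fold higher, Jun (11 and 41 UMIs) and Hspa1a (5 and 31 UMIs), and Egr1 was lower (19 and 6 UMIs), with a median of 0.06. Over all 3206 genes with at least 20 UMIs, 5.55% were at least 2-fold higher and 4.34% lower. Of the cell cycle list, at least 3 UMIs were found in 47 of 60 and 41 of 49 cells. Of the narrower set of 6 cycling markers, at least 3 UMIs were found in 0 of 60 and 1 of 49 cells. Stmn1 and Hmgb2 were the 2 of 4 measured cell cycle genes at least 2-fold higher, against 5.55% of all 3206 genes. A single cell held 72.2% of the Stmn1 UMIs. Of the cell cycle genes 0 of 3 passed without cells holding 3 UMIs of other lineage markers, and 0 of 2 without the 17 cells. Uptake genes (median -0.02 over 6), integrins (-0.01 over 7) and survival genes (-0.05 over 9) had none higher and 2 lower between them, Cd209a and Itgal, and without the 17 cells none was lower. Cd209a is itself among the cDC2 markers by which those cells were left out. The median of all 3206 genes with at least 20 UMIs was 0.04.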

How the data were processed

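UMI counts per gene and cell were deposited by the authors as 1 raw count matrix per library, and a deposited table gave each cell's cluster (categories, used as labels) and t-SNE coordinates (a score, not used). Cell Ranger, Seurat and mm10 are named in the submitters' processing notes, and their versions and filters are not given in the sources used here. Counts of the 109 cells were summed per library (1 per diet). A diet ratio is log2 of CPM with 0.5 UMIs added to each count, called at 2-fold among genes with at least 50 UMIs (20 for lists). Counts against clusters 5 and 6 used ratios of CPM + 20. They covered genes with at least 100 UMIs in at least 1 of the 3 clusters, also for lists. Named genes were the 10 highest and 10 lowest ratios with at least 100 UMIs and no cell holding over 25% of them, without mitochondrial, immunoglobulin and T cell receptor genes, and the 20 leading genes of the cluster. Cd58, Nectin2 and Clec7a were not analysed here. A gene of the cholesterol list is not reported here. No doublet caller was run. The calculation was tested on simulated data. Members and lists were chosen with earlier results of these data known. Software was Python 3.11.15 with numpy 2.4.6, scipy 1.17.1 and pandas 2.3.3.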

Additional observations from a re-analysis of the deposited data

Results flagged for a closer look

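Outside the authors' cluster table, 5 further cells carried at least 3 UMIs of the 5 markers of mature migratory DCs, 3 of the 87 such chow cells and 2 of the 55 such ketogenic cells. They are flagged as a signal in cells that no comparison above uses. Their median share of mitochondrial UMIs was 6.37% and 5.73%, and the highest share in any cell of cluster 12 was 3.25%.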

How the results depend on the processing

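No paired analysis was possible because there was 1 library per diet and the labels carry no replicate numbers, so no library could be left out either. The share ratio of 0.655 stayed below 1, at 0.493 to 0.817, under 7 alternatives; the ratio was 1.08 over clusters 5, 6, 8 and 12, and counting every cell with 3 marker UMIs, unthinned, gave 1.45, where clusters 2 and 9 also hold Ccr7. At minimums of 20, 100 and 200 UMIs, 178, 22 and 6 genes were 2-fold higher and 139, 15 and 7 lower; without the 17 cells rich in other markers 25 were higher, and 35 with cDC1 markers not counted. Higher genes were 60.7% of calls as reported, 50.7% without cells holding 3 UMIs of other lineages, 48.1% without the 17 cells (53.0% with cDC1 markers not counted) and 46.2% at 200 UMIs. Of 180 values for the 20 named genes, 161 kept at least 2-fold and 2 turned, Lyz2 and Ccl6 to 0.17 with free RNA subtracted. The 163 genes above cDCs became 166 to 178. Shares with a cDC1 marker UMI were 85.0% and 91.8% unthinned and 55.0% and 59.7% at 2000 UMIs; with a cDC2 marker UMI 60.0% and 24.5%, and 29.0% for chow at 2000. The cells with 10 UMIs of other markers (both forms), the highest cell per gene, the unthinned count, cluster 8 among DCs and the lists without Irf8 or Itgam were chosen as alternatives after seeing the data. With 109 cells, genes under 50 UMIs have wide intervals.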
